A study of Mus musculus with 2 samples.

Results

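Kcne3 Mest Ms4a6d cells were blood endothelial cells (BECs) of mouse tumors with at least 3 unique molecular identifiers (UMIs, each marking 1 captured transcript) summed over the 3 marker genes Kcne3, Mest and Ms4a6d. They made up 580 of 7204 gated BECs in the KPC library, which is 8.05% (95% exact Clopper-Pearson interval 7.43 to 8.70%), and 3958 of 10352 gated BECs in the PyMT library, which is 38.2% (37.3 to 39.2%). The whole series held 22700 cell barcodes. Barcodes that showed fewer than 500 genes or 10% or more of mitochondrial UMIs were left out, and a barcode entered the BEC gate with at least 2 UMIs of the pan-endothelial genes Pecam1, Cdh5 and Egfl7 and at most 1 UMI of Ptprc, Col1a2, Epcam, Mmrn1 and Notch3, which mark leukocytes, fibroblasts, epithelium, lymphatic endothelium and mural cells. Members also had at most 2 UMIs of the tip cell genes Apln and Angpt2, at most 2 of the venular genes Ackr1 and Selp, at most 1 of the arterial genes Gja5, Sema3g and Fbln5, and at most 1 of the cycling genes Top2a and Mki67. Members were compared with 2 other classes of the gate, each library on its own. The first was BECs with at least 3 UMIs of Apln and Angpt2, named Apln Angpt2 cells (1424 in KPC and 2062 in PyMT). The second was all remaining BECs of the gate, named the rest (5200 in KPC and 4332 in PyMT).

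The BECs came from wild-type C57BL6 female mice that were aged 6 weeks when 100000 tumor cells were implanted orthotopically, and the tumors were taken after 10 days. KPC is a pancreatic ductal adenocarcinoma line from genetically engineered mice with a pancreas-directed Cre, and PyMT is a mammary cancer line from MMTV-PyMT mice. The genetic changes lay in the implanted tumor cells, so the sequenced endothelium of both models was wild type and was exposed to 1 implanted line per model for a short time. Digested tumors were depleted of leukocytes, epithelial cells, erythroid cells, podoplanin-positive cells and dying cells, BECs were then sorted, and each tumor model gave 1 droplet-based single-cell RNA sequencing library from an unstated number of mice. With 1 library per model nothing could be tested, and the intervals below cover counting error only. The libraries differed in tumor type, organ and library at once, and these cannot be told apart. The same 170 barcode sequences occurred in both libraries, among them 10 KPC members and 43 PyMT members, of which 4 were members in both.

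New capillaries in tumors are led by tip cells, which carry the secreted peptide apelin (Apln) and the Tie2 ligand angiopoietin 2 (Angpt2), and are followed by endothelium that extends, proliferates and matures into capillary, arterial and venular segments. Kcne3 encodes a single-pass beta subunit that sets the gating of voltage-gated potassium channels. Mest, also known as Peg1, is an imprinted gene expressed from the paternal copy, abundant in embryonic mesoderm. Ms4a6d encodes a membrane protein of the MS4A family and is otherwise best known from macrophages.

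The members were chosen by the UMI counts of these markers, so their levels are given as a description. Levels are given as CPM, the UMIs of a gene summed over all cells of a class, divided by the UMIs of that class and scaled to 1000000, with exact Poisson 95% intervals. Kcne3 stood at 216 CPM (200 to 233) in KPC members against 102 in Apln Angpt2 cells and 33.0 in the rest, and at 166 CPM (160 to 172) in PyMT members against 114 and 43.2. Mest stood at 483 CPM (459 to 508) in KPC members against 250 and 73.1, and at 1316 CPM (1299 to 1332) in PyMT members against 1214 and 491. Ms4a6d stood at 389 CPM (367 to 411) in KPC members against 95.3 and 51.3, and at 171 CPM (165 to 177) in PyMT members against 114 and 98.1. Mest was thus the most abundant marker of PyMT members and differed little there from Apln Angpt2 cells, whereas Ms4a6d and Kcne3 carried a larger part of the KPC members. Of the Apln Angpt2 cells themselves, 30.7% in KPC and 81.0% in PyMT also had at least 3 UMIs of the markers. So did 166 KPC cells (3.19%) and 885 PyMT cells (20.4%) of the rest, which the venular, arterial or cycling limits had kept out of the members. The upper limit on Apln and Angpt2 removed 437 KPC and 1671 PyMT cells that the markers alone would have chosen.

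**Figure D1:**
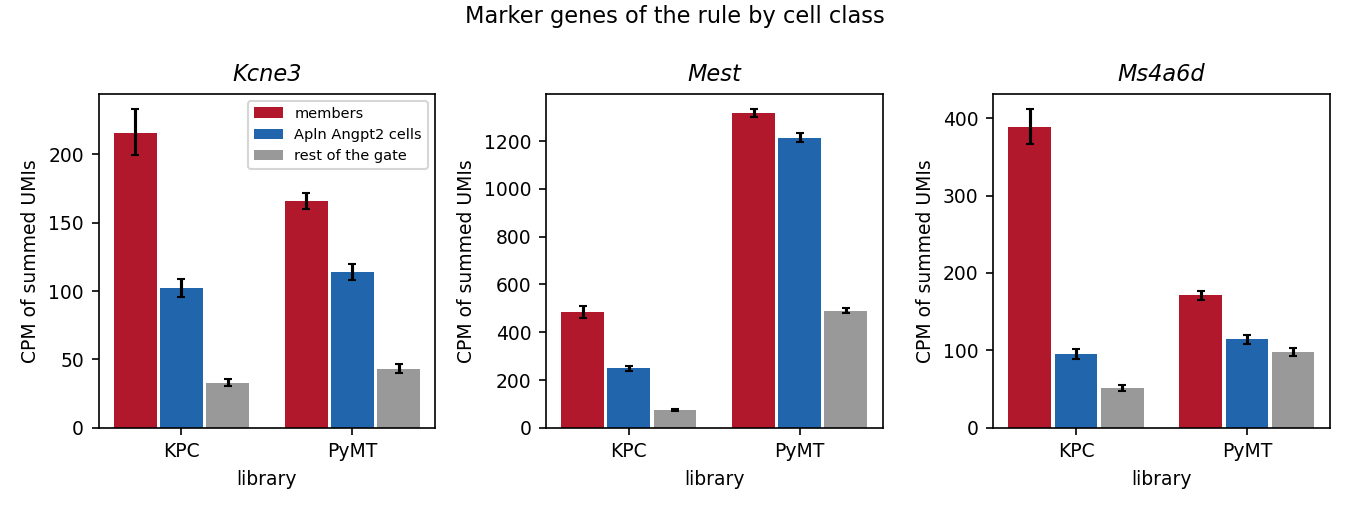
Level of each marker gene (CPM, with exact Poisson 95% intervals) in members, Apln Angpt2 cells and the rest of the gate, for KPC and PyMT. Mest reached 1316 CPM in PyMT members beside 1214 CPM in PyMT Apln Angpt2 cells, while Ms4a6d stood at 389 CPM in KPC members beside 95.3 CPM in KPC Apln Angpt2 cells.

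On the mouse genome (GRCm38, GENCODE M21 annotation) Kcne3 is a protein-coding gene at chr7:100176502-100184869 on the plus strand, and some of its exons overlap those of Gm34821 on the other strand. Mest lies at chr6:30723547-30748465 on the plus strand and overlaps Copg2, which runs on the other strand. The strand setting of the counting is not given in the sources used here. Copg2 was counted apart from Mest, at 8.10 CPM in KPC members against 10.3 in both other classes, and at 11.8 CPM in PyMT members against 11.6 in Apln Angpt2 cells and 11.3 in the rest, so that it did not follow the levels of Mest. Ms4a6d lies at chr19:11586604-11604849 on the minus strand. The library was made from the 3′ end of transcripts, and none of the 60-base stretches in the last 500 bases of Ms4a6d transcripts occurred in any other Ms4a gene examined, although 22 of 1731 such stretches over the whole transcripts also occurred in Ms4a6b. Among the genes described further on, the potassium channel genes Kcnj8 (chr6:142564837-142571614) and Abcc9 (chr6:142587862-142702315) neighbor each other on the minus strand, and Kcnj2 lies at chr11:111066164-111076821 on the plus strand.

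The 250 bases before the transcription start of both markers with an entry and of the Kcnj8 and Kcnj2 channel genes are printed because transcripts of these genes were detected in the same BECs. Kcne3 had 2 entries and Mest 3, and a single window is printed for each gene. They were taken from RefSeq on GRCm38.p6, at chr7:100178433-100178682 for Kcne3, chr6:30737800-30738049 for Mest and chr11:111065914-111066163 for Kcnj2, all on the plus strand, and at chr6:142571615-142571864 on the minus strand for Kcnj8. The letters CGGAAG (bound by ETS factors), ACGTG (the core of the hypoxia response element) and GATAAG (bound by factors of the GATA family) were searched on both strands. Capitals mark ACGTG matches, which overlap in the Kcnj2 promoter as 1 match on either strand.
Kcne3: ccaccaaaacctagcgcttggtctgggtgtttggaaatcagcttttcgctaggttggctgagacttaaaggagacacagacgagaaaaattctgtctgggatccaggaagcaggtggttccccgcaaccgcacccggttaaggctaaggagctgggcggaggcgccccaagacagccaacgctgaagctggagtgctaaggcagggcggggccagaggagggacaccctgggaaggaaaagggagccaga
Mest: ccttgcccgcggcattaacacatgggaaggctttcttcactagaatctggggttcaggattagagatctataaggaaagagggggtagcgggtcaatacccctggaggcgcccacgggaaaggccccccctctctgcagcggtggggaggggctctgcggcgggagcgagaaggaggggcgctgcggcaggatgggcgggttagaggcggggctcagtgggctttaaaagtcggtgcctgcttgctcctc
Kcnj8: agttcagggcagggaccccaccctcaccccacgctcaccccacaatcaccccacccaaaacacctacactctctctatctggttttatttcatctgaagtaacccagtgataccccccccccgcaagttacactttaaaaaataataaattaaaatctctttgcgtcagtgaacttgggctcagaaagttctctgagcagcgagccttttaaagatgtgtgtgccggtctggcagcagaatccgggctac
Kcnj2: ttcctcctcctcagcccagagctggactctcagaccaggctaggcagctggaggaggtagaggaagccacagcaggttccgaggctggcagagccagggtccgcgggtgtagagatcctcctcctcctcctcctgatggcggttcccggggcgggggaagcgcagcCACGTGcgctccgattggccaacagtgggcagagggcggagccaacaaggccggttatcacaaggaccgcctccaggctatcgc
None of the searched letters stood in the windows of Kcne3, Mest or Kcnj8. Over 32851 RefSeq promoters, 13.59% of windows of this length held CGGAAG, 16.57% held ACGTG and 6.548% held GATAAG. A match is a run of letters and was not examined for binding.

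Members were deeper cells than the rest. The median UMI count per member was 4829.5 in KPC and 4185.5 in PyMT, compared with 5540 and 5879 in Apln Angpt2 cells and 2094.5 and 3053 in the rest, and the median number of genes per member was 1996 and 1736. When each cell was thinned to 2000 UMIs before the rule was applied, the share of members was 6.921% in KPC and 33.91% in PyMT. The share thus stayed higher in PyMT than in KPC after thinning. Without Mest as a marker it was 4.442% in KPC and 8.897% in PyMT.

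The members were mixed in which marker they carried. In KPC, Mest had the most UMIs of the markers in 228 members (39.3%), Ms4a6d in 218 (37.6%) and Kcne3 in 83 (14.3%), with ties in 51. In PyMT, Mest led in 3387 members (85.6%), Ms4a6d in 227 (5.74%) and Kcne3 in 166 (4.19%), with ties in 178. All 3 markers were detected in 98 KPC members (16.9%) and in 606 PyMT members (15.3%), and a single marker in 159 (27.4%) and 1482 (37.4%). Mest alone accounted for 1436 PyMT members (36.3%) but for 73 KPC members. A member in PyMT was therefore in most cases a Mest-high cell, and the KPC members were spread over the markers.

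Markers were found in the same cells more often than apart in some pairs. With the gated BECs thinned to 2000 UMIs, which left out 2578 shallower cells in KPC and 1149 in PyMT, Mest was detected in 32.7% of KPC cells with Kcne3 and in 18.4% of those without, and in 82.7% against 69.9% in PyMT. With Ms4a6d as the partner, the share with Mest was 33.1% against 17.5% in KPC, but 72.3% against 71.8% in PyMT. Ms4a6d was detected in 20.3% of KPC cells with Kcne3 and in 15.3% of those without, and in 25.4% against 20.9% in PyMT. Kcne3 was thus detected more often with either of the other markers in both libraries, and Ms4a6d with Mest in KPC. Among all cells that passed the filters, inside or outside the gate, 462 KPC cells had at least 3 UMIs of the fibroblast gene Col1a2 and enough UMIs to be thinned to the same depth. Of these 0 had Kcne3, where 3 cells would make 0.649%, 5.19% had Mest and 1.30% had Ms4a6d. In the 29 such PyMT cells 34.5% had Mest, and of 158 KPC cells with at least 3 UMIs of Epcam 8.23% had Kcne3.

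Cell identity was checked with lists of marker genes, which hold Ptprc, Col1a2, Epcam, Mmrn1 and Notch3 that the gate had already limited. The 14 pan-endothelial genes summed to 9305 CPM in KPC members against 6870 in Apln Angpt2 cells and 7715 in the rest, and to 6767, 5880 and 6350 CPM in PyMT. Epithelial and tumor genes summed to 264 CPM in KPC members against 1600 in the rest and to 17.8 against 87.7 in PyMT, led by Krt8. Fibroblast genes summed to 36.0 and 17.5 CPM in members, led by Col3a1, and lymphatic genes to 154 and 72.8 CPM, led by Flt4. Immune genes summed to 31.1 CPM in KPC members, below Apln Angpt2 cells (46.8) and the rest (72.3). In PyMT they were highest in members, at 36.3 CPM against 21.2 in Apln Angpt2 cells and 32.6 in the rest. Fcer1g, the Fc receptor gamma chain gene, led this list in members, at 16.9 CPM in KPC against 16.6 and 21.6, and at 18.5 CPM in PyMT against 11.5 and 9.70. The macrophage genes Csf1r and Adgre1 were at 0 in members of both libraries, as was the T cell gene Cd3e, where 3 UMIs would make 0.972 CPM in KPC and 0.161 in PyMT. When cells with a UMI of myeloid genes were left out, each of the 99 gene results followed moved by less than its counting interval. Erythroid and platelet genes summed to 8.43 CPM in KPC members, led by Pf4, and to 49.5 CPM in PyMT members, led by Hbb-bs, against 164 and 103 in the rest.

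The word immature, which has been used for these cells, was held against a list of 20 genes of immature and angiogenic capillaries. Levels were compared as log2 ratios of CPM, with exact conditional 95% intervals, over genes with at least 1 UMI in 10% of the cells of either class in both libraries. A gene counted as higher or lower when it differed by at least 1.5-fold. Members differed from the rest in 45 genes that were higher in both libraries, 0.934% of the 4816 genes compared, and in 91 that were lower in both, 1.89%. In KPC alone 5.42% of genes were higher and 5.44% lower, and in PyMT alone 1.16% and 2.6%, with medians over all genes of 0.00 and -0.02. Since the genes were counted in the same cells that the rule chose, these ratios are descriptions. After thinning each cell to 2000 UMIs, 15 genes were higher and 34 lower in both libraries.

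Of the 20 genes for immature and angiogenic capillaries, 1 was higher in both libraries, and the list's median log2 ratio was 0.53 in KPC and 0.20 in PyMT. That gene was Cd276, a surface protein of the B7 family abundant on tumor endothelium, with log2 ratios of 1.56 in KPC and 0.76 in PyMT. The apelin receptor gene Aplnr stood at 515 CPM in KPC members against 385 in the rest, but at 370 against 432 in PyMT. Plvap, which forms the diaphragms of fenestrated capillaries, stood at 2601 CPM in KPC members against 3169 in the rest and at 1276 against 1368 in PyMT. In KPC 9 of the 20 were past 1.5-fold and 17 had ratios above 0, and in PyMT 1 was past 1.5-fold and 16 had ratios above 0. The cells are called here by their marker genes.

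**Figure D2:**
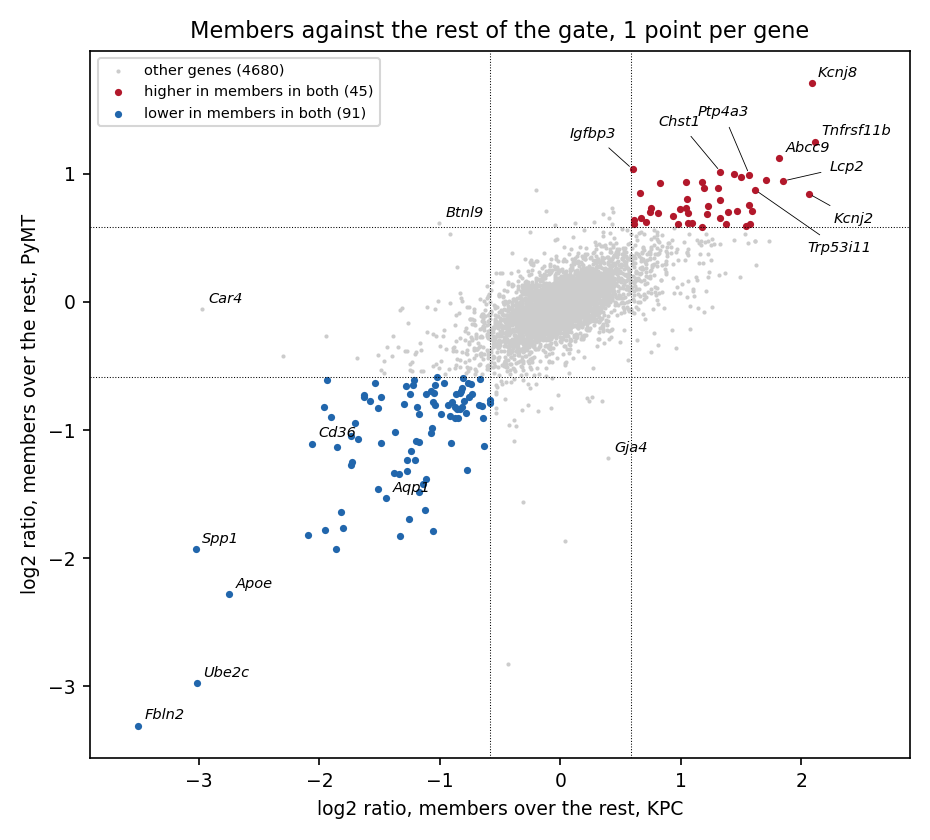
Log2 ratio of CPM in members over the rest of the gate for each gene compared, KPC on the horizontal and PyMT on the vertical axis, with dotted lines at 1.5-fold. The 45 genes higher in both libraries, among them Kcnj8 and Abcc9, lie at the upper right and the 91 lower in both, among them Fbln2 and Aqp1, at the lower left.

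Among the genes highest in members over the rest were those of potassium channels. Kcnj8 encodes Kir6.1, the pore of a potassium channel closed by ATP, and Abcc9 encodes SUR2, its regulatory subunit. Kcnj8 stood at 56.1 CPM (48.0 to 65.1) in KPC members against 13.2 in the rest, and at 81.7 CPM (77.6 to 85.9) in PyMT members against 24.98. Its log2 ratio was 2.08 (1.79 to 2.38) in KPC and 1.71 (1.55 to 1.87) in PyMT. Abcc9 stood at 67.7 CPM against 19.2 in KPC and at 60.4 against 27.8 in PyMT, with log2 ratios of 1.82 (1.56 to 2.08) and 1.12 (0.96 to 1.28). Both subunits of 1 channel were thus higher in members of both tumors. Kcnj2, which encodes the inward rectifier Kir2.1, stood at 52.5 CPM against 12.6 in KPC and at 32.9 against 18.3 in PyMT, with log2 ratios of 2.06 and 0.84. Of 18 potassium channel genes in the files besides Kcne3, 4 were abundant enough to compare, and Kcnj8, Abcc9 and Kcnj2 were higher in both libraries, with a list median of 1.94 in KPC and 0.98 in PyMT. The fourth was Kcnq1, a pore-forming subunit that KCNE proteins bind, with log2 ratios of 0.67 and 0.54.

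Kcnj8 and Abcc9 are also pericyte genes, and each of the remaining pericyte genes was less abundant than these in members. The 10 pericyte genes summed to 212 CPM in KPC members, 806 in Apln Angpt2 cells and 294 in the rest, and to 152, 85.3 and 111 CPM in PyMT. Abcc9 and Kcnj8 were the most abundant of them in members of both libraries, whereas Tagln and Acta2 led in the other KPC classes. Rgs5, a common pericyte marker, stood at 16.9 CPM in KPC members and 2.31 in PyMT members, Pdgfrb at 3.57 and 1.40, and Cspg4 was at 0 in KPC members. Of the cells outside the gate, those with at least 3 UMIs of the mural gene Notch3 and fewer of Ptprc, Col1a2, Epcam and Mmrn1 each numbered 10 in KPC and 4 in PyMT. Kcnj8 stood there at 260 CPM (138 to 444) and 342 CPM (148 to 674), and Abcc9 at 220 CPM (110 to 393) and 171 CPM (46.6 to 438). These levels were above those in members, although the PyMT interval of Abcc9 held the 60.4 CPM of PyMT members. The same cells held Plvap, a gene of endothelium, at 2456 CPM in KPC and 684 CPM in PyMT, so they cannot be taken as mural cells alone. When every cell with a UMI of Rgs5, Pdgfrb, Cspg4, Notch3, Higd1b or Des was left out, the weaker of the 2 log2 ratios of Kcnj8 over the rest was 1.75, and that of Abcc9 was 1.14.

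The channel genes were also detected in the same cells as Kcne3. Among BECs within the upper limits of the rule that had at least 2000 UMIs and were thinned to that number (3231 in KPC and 7312 in PyMT), Kcnj8 was detected in 10.8% of KPC cells with Kcne3 and in 3.59% of those without, and in 19.4% against 7.003% in PyMT. Abcc9 was detected in 13.3% against 5.44% in KPC and in 15.02% against 7.18% in PyMT. Kcnj2 was detected in 12.7% against 3.45% and in 9.13% against 4.69%. Given Mest, the shares with Kcnj8 were 8.03% against 3.35% in KPC and 10.0% against 6.30% in PyMT, and given Ms4a6d 8.70% against 3.46% and 11.2% against 8.37%. In PyMT the gap was thus wider with Kcne3 than with the other markers. Cells with Kcnj8 had Abcc9 in 23.9% against 5.50% in KPC and in 21.5% against 7.15% in PyMT. In cells with at least 3 UMIs of Col1a2 the share with Kcnj8 was 2.16% of 462 in KPC and 17.2% of 29 in PyMT. Of 158 KPC cells with at least 3 UMIs of Epcam 0 had Kcnj8, where 3 cells would make 1.90%. Abcc9 was detected in 2.16% of the KPC and 31.0% of the PyMT Col1a2 cells.

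Tnfrsf11b encodes osteoprotegerin, a secreted decoy receptor for RANKL and TRAIL. It stood at 34.0 CPM (27.8 to 41.2) in KPC members against 7.84 in the rest, and at 35.0 CPM (32.4 to 37.8) in PyMT members against 14.7, with log2 ratios of 2.12 and 1.25. It did not go with Kcne3 in single cells. After thinning, 2.22% of KPC cells with Kcne3 and 2.72% of those without had Tnfrsf11b, and in PyMT 4.18% and 4.22%. With Ms4a6d the shares were 7.48% against 1.62% in KPC and 3.78% against 4.33% in PyMT, and with Mest 4.71% against 2.07% and 4.70% against 2.93%. Tnfrsf11b was detected in 3.25% of the KPC Col1a2 cells and in 0.633% of the KPC Epcam cells. With Kcne3 and Ms4a6d as the only markers the weaker ratio to the rest fell under 1.5-fold, at 0.48.

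The other genes with the highest ratios to the rest in both libraries had varied functions. Ptp4a3, which encodes the phosphatase PRL-3, stood at 298 CPM against 101 in KPC and at 475 against 239 in PyMT, with log2 ratios of 1.57 and 0.99. Chst1, a sulfotransferase, had log2 ratios of 1.33 and 1.02, and Lcp2, an adaptor best known in T cells and platelets, 1.85 and 0.94. F2rl3, the thrombin receptor PAR4, had ratios of 1.17 and 0.93, and Kdelr3, a retrieval receptor of the secretory pathway, 1.19 and 0.89. Ift122 (1.44 and 0.999), Ppm1j (1.497 and 0.98), Rftn2 (1.71 and 0.95) and Rcsd1 (1.04 and 0.94) completed the 12 highest. After thinning, the weaker ratio was 0.49 for F2rl3, 0.56 for Kdelr3 and 0.58 for Rcsd1, under 1.5-fold. Apln Angpt2 cells carried some of these genes at similar or higher levels. Lcp2 stood there at 37.4 CPM in KPC against 28.5 in members, and Kdelr3 at 82.1 against 66.8. In PyMT they stood at 37.4 against 41.6 and at 89.1 against 89.9 CPM.

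Genes of tip cells were partly shared by members. Of 14 comparable tip cell genes, 6 were higher in members than in the rest in both libraries and 0 lower, with a list median of 0.81 in KPC and 0.58 in PyMT. They were Kcnj8, Trp53i11 (log2 ratios 1.62 and 0.87), the basement membrane gene Nid2 (1.47 and 0.71), the actin-bundling gene Fscn1 (0.98 and 0.61), Igfbp3 (0.60 and 1.04) and the proteoglycan gene Esm1 (0.61 and 0.64). Against the part of the rest that met the same upper limits as members (3907 KPC and 2664 PyMT cells), Esm1 had log2 ratios of 0.10 and 0.53 and Igfbp3 of 0.06 and 0.95, so that both fell under 1.5-fold in KPC. Fscn1 and Nid2 fell under 1.5-fold in PyMT, at 0.53 and 0.58, which left 2 of the 14 genes, Kcnj8 and Trp53i11 (1.43 and 0.80), higher in both libraries. Over all genes compared with this part of the rest 34 genes (0.711%) were higher in both libraries and 63 (1.32%) lower, and 28 of the 34 were among the 45 counted above. Of 15 basement membrane genes Nid2 alone was higher in both libraries, although 10 were higher in KPC alone, where the list median was 0.67 against 0.23 in PyMT. Against the rest within the upper limits 0 of the 15 were higher in both. After thinning the weaker ratio of Fscn1 to the rest was 0.42.

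Of 14 comparable genes of quiescent capillaries, 6 were lower in members than in the rest in both libraries and 0 higher, with medians of -1.14 in KPC and -0.46 in PyMT, and against the rest within the upper limits 8 were lower. In PyMT alone 5 of the 14 had ratios above 0 and 2 of them, Gpihbp1 (0.71) and Btnl9 (0.61), were past 1.5-fold. The water channel gene Aqp1 stood at 407 CPM in KPC members against 1110 in the rest and at 190 against 550 in PyMT, with log2 ratios of -1.45 and -1.53. The fatty acid transporter gene Cd36 had log2 ratios of -2.06 and -1.11, the chemokine gene Cxcl12 -1.06 and -1.78, and the fatty acid binding protein genes Fabp4 and Fabp5 -1.49 and -0.74 and -1.30 and -0.80. Car4, the carbonic anhydrase of capillaries, parted the tumors. It stood at 17.5 CPM in KPC members against 137 in the rest, but at 398 against 415 in PyMT, where 46.0% of members had a UMI of Car4 against 5.52% in KPC. Apln Angpt2 cells stood at 15.5 CPM in KPC and at 386 in PyMT, so that this difference between the tumors was not particular to members. With the rest weighted to the depth of the members, the weaker ratio of Cxcl12 was -0.23 and no longer past 1.5-fold, and that of Fabp5 was -0.58.

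Fbln2, Apoe, Spp1 and Clu were among the genes with the lowest ratios to the rest in both libraries. Fbln2, which encodes the matrix protein fibulin 2, stood at 22.4 CPM against 253 in KPC and at 5.74 against 56.8 in PyMT, with log2 ratios of -3.50 and -3.31. The secreted proteins Apoe (-2.75 and -2.28), Spp1 (-3.03 and -1.93) and Clu (-1.86 and -1.93) and the focal adhesion gene Lims2 (-1.34 and -1.34) were lower in both libraries. The venous list had 2 of 7 comparable genes lower and 0 higher, Icam1 (-1.85 and -1.13) and Il6st (-1.20 and -1.24). The arterial list had 2 of 9 lower, Clu and Ltbp4 (-0.59 and -0.79). Both lists lost genes to the upper limits of the rule. The flow-responsive genes Klf4 (-1.18 and -1.10) and Thbd (-0.80 and -0.77) were lower, as were Egr1 and Nr4a1 among 14 immediate early genes. Of 11 interferon-stimulated genes Gbp4 (-1.28 and -0.65) and Iigp1 (-1.58 and -0.77) were lower in both. With Kcne3 and Ms4a6d as the only markers their weaker ratios were -0.12 and -0.20. In PyMT members led by Ms4a6d, Gbp4 stood at 52.9 CPM and Iigp1 at 172, above the 38.5 and 104 of the rest. PyMT members led by Mest stood at 23.0 and 56.5 CPM and those led by Kcne3 at 20.2 and 35.7. In KPC both genes were below the rest whichever marker led. With the rest weighted to the depth of the members, the weaker ratios were -0.05 for Thbd, -0.09 for Ltbp4, -0.52 for Gbp4, -0.57 for Iigp1 and -0.54 for Nr4a1, and after thinning -0.53 for Clu, all short of 1.5-fold.

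Cycling genes were lower in members, from which the rule had set aside cells with more than 1 UMI of Top2a and Mki67. All 7 comparable genes of the G2 and M phases and 2 of 9 S phase genes were lower than in the rest, among them Ube2c (-3.02 and -2.98). Against the rest within the upper limits, 0 of these lists' genes were lower in both libraries, and Ube2c had log2 ratios of -0.40 and -0.16.

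Of 5 comparable VEGF genes, 10 Notch genes, 5 integrin genes and 14 guidance genes, 0 were higher or lower in both libraries. In KPC alone 4 of the Notch genes and 5 of the guidance genes were higher, beside 5.42% of all genes. The Notch target gene Hey1 stood at 138 CPM in KPC members against 61.2 in the rest and at 92.3 against 68.0 in PyMT, and the Notch ligand gene Dll4 at 184 against 96.8 and at 136 against 97.1. The VEGF receptor gene Kdr stood at 503 CPM in KPC members against 607 in the rest and at 282 against 302 in PyMT. Of 14 glycolysis and hypoxia genes Ankrd37 was higher (1.59 and 0.71). Apln Angpt2 cells held more of it than members, at 84.9 against 69.4 CPM in KPC and 78.2 against 54.4 in PyMT. Of 4 angiopoietin and Tie genes the phosphatase gene Ptprb was lower than in the rest (-0.87 and -0.82). Cavin2 of the caveolae (-1.68 and -1.07) and Jam2 of the junctions (-1.51 and -0.83) were also lower. Of the 3 comparable imprinted genes besides Mest, 0 differed in both libraries, although 2 were higher in KPC alone. Of 12 BMP and TGF-beta genes Id2 was lower (-1.25 and -0.72), of 13 matrix crosslinking genes Timp2 (-1.27 and -1.23) and of 21 endothelial transcription factors Foxp1 (-0.64 and -0.91). The weaker ratios of Ptprb and Foxp1 were -0.31 and -0.38 with the rest weighted to the depth of the members, and that of Id2 was -0.28 after thinning. With Kcne3 and Ms4a6d as the only markers the weaker ratios of Cd276 (0.43), Lcp2 (0.58), Jam2 (-0.37) and Egr1 (-0.50) were also short of 1.5-fold, and with Mest and Ms4a6d so was that of Ankrd37 (0.57).

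The second comparison asked how members differed from Apln Angpt2 cells. Of 5779 genes compared, 47 (0.813%) were higher in members in both libraries and 196 (3.39%) lower. In KPC alone 5.24% were higher and 6.71% lower, and in PyMT 0.969% and 3.93%. Many of the lower genes belonged to the cell cycle, with 20 of 20 G2 and M phase genes and 15 of 18 S phase genes lower. Against the Apln Angpt2 cells that met the other upper limits (1010 in KPC and 1387 in PyMT), 25 genes (0.473%) were higher and 39 (0.738%) lower, of which 24 and 28 were also called against all Apln Angpt2 cells. After thinning, 29 genes were higher and 43 lower. Within the other limits, 0 of the 7 comparable G2 and M phase genes and 1 of 15 S phase genes, Cdt1, were lower.

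**Figure D3:**
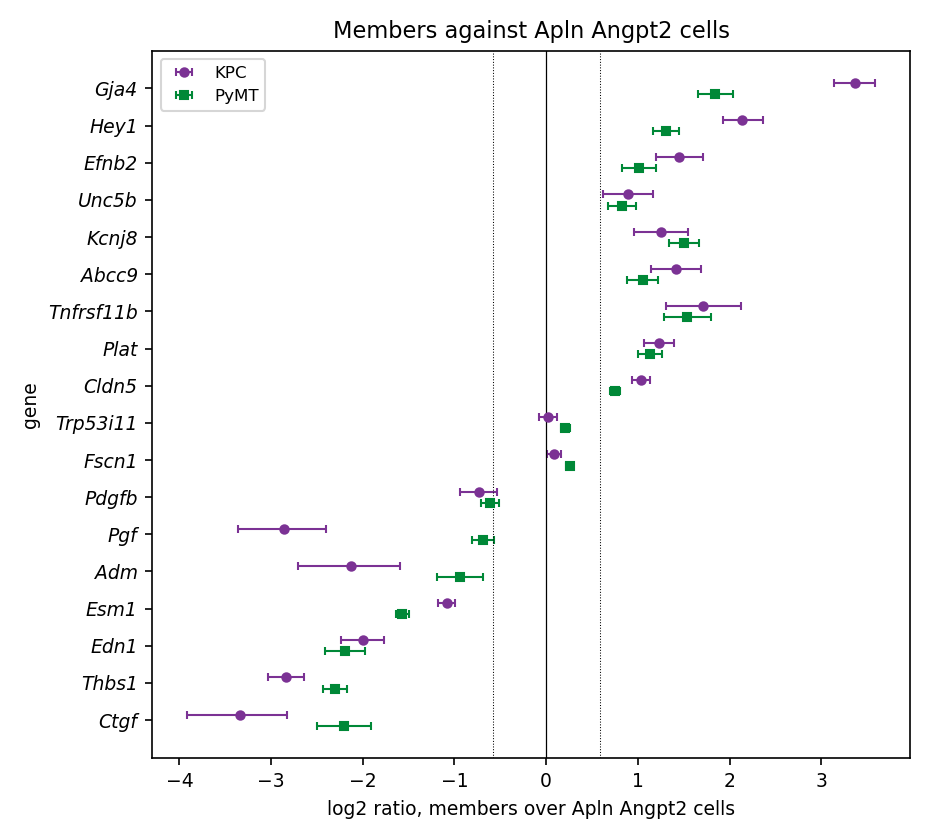
Log2 ratio of CPM in members over Apln Angpt2 cells for selected genes, KPC as circles and PyMT as squares with exact conditional 95% intervals, and dotted lines at 1.5-fold. Gja4, Hey1, Tnfrsf11b and Kcnj8 lie to the right and Thbs1, Ctgf and Edn1 to the left of the lines in both libraries.

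Of 9 comparable arterial genes 4 were higher in members than in Apln Angpt2 cells in both libraries and 1 was lower, and of 11 Notch genes 1 was higher, Hey1. Gja4, which encodes the gap junction protein connexin 37, stood at 233 CPM (216 to 251) in KPC members against 22.6 in Apln Angpt2 cells, and at 71.3 CPM (67.5 to 75.2) against 19.9 in PyMT. A minority of members carried it. Gja4 had a UMI in 24.7% of KPC members against 6.81% of Apln Angpt2 cells, and in 12.7% against 6.01% in PyMT. Its log2 ratio was 3.36 (3.14 to 3.59) in KPC and 1.84 (1.65 to 2.04) in PyMT, the largest of the weaker ratios in this comparison. The Notch target gene Hey1 stood at 138 CPM against 31.2 in KPC and at 92.3 against 37.3 in PyMT, with log2 ratios of 2.14 and 1.31. The ephrin B2 gene Efnb2 stood at 76.8 CPM against 28.1 and at 49.4 against 24.4, with log2 ratios of 1.45 and 1.01. The netrin receptor gene Unc5b (0.90 and 0.82) was the other arterial gene that was higher, and the endothelin gene Edn1 was lower (-2.00 and -2.19). The rest of the gate also carried Gja4, with 178 CPM in KPC and 166 in PyMT, and the upper limit on Gja5, Sema3g and Fbln5 applied to members and not to the other classes. Against the Apln Angpt2 cells within the other limits Gja4 had log2 ratios of 3.59 and 1.74, Hey1 1.91 and 1.07, and Unc5b 0.71 and 0.54, the last under 1.5-fold in PyMT.

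Of 5 comparable potassium channel genes 2, Kcnj8 and Abcc9, were higher in members than in Apln Angpt2 cells in both libraries, and Tnfrsf11b was higher as well. Kcnj8 stood at 23.6 CPM in KPC and 28.9 in PyMT Apln Angpt2 cells, which made log2 ratios of 1.25 (0.96 to 1.54) and 1.5005 (1.34 to 1.66). Abcc9 stood at 25.4 and 29.1 CPM there, with ratios of 1.42 and 1.05, and Tnfrsf11b at 10.4 and 12.1 CPM, with ratios of 1.71 and 1.54. Kcnj2 was closer, with log2 ratios of 0.55 and 0.23, and Kcna5, a voltage-gated channel gene, had ratios of -0.84 and 0.50. Within the other limits the ratios of Kcnj8 were 0.89 and 1.12 and those of Abcc9 1.18 and 0.77. Other genes among the 12 highest were the tissue plasminogen activator gene Plat (1.23 and 1.13), the small heat shock protein gene Hspb8 (1.04 and 1.28), the phosphatase gene Dusp2 (1.65 and 0.93), the glutamine synthetase gene Glul (1.62 and 0.89) and the lipid antigen presenter Cd1d1 (1.25 and 0.83). Btnl9 was among them too, at 44.4 CPM in KPC members against 15.4 in Apln Angpt2 cells and at 39.1 against 18.9 in PyMT. The tight junction gene Cldn5 (1.03 and 0.75) and the semaphorin gene Sema7a (1.45 and 0.79) were higher too, although Cldn5 was at 0.54 after thinning and Glul at 0.51 with Kcne3 and Ms4a6d as the only markers.

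Thbs1 and Ctgf were among the genes with the lowest ratios of members to Apln Angpt2 cells in both libraries. Thbs1, which encodes the angiogenesis inhibitor thrombospondin 1, stood at 74.2 CPM in KPC members against 530 and at 32.1 against 159 in PyMT, with log2 ratios of -2.83 and -2.30. Ctgf, a target of the YAP coactivator, stood at 9.72 against 98.8 CPM and at 6.87 against 31.6, with ratios of -3.34 and -2.20. Of 17 comparable tip cell genes, 4 were lower in both libraries, which were Esm1 (-1.09 and -1.57), the vasodilator gene Adm (-2.13 and -0.94), the VEGF family gene Pgf (-2.86 and -0.69) and the pericyte recruiting ligand Pdgfb (-0.73 and -0.61). With Kcne3 and Ms4a6d as the only markers the weaker ratio of Adm was -0.25 and that of Pgf -0.30, both short of 1.5-fold. Kcnj8 and Unc5b of the same list were higher, and Trp53i11 (0.02 and 0.21) and Fscn1 (0.09 and 0.25) did not differ by 1.5-fold. Caveolin 1 (Cav1, -1.07 and -0.61) and Cavin2 (-0.62 and -0.73) were also lower, but the weaker ratio of Cavin2 was -0.43 with a threshold of 2 marker UMIs, -0.56 with Kcne3 and Mest as the only markers, and -0.57 both after thinning and within the other limits. Of 20 immature and angiogenic genes 0 differed in both libraries from Apln Angpt2 cells, with list medians of 0.33 in KPC and 0.22 in PyMT.

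Levels of several other genes differed over the number of marker UMIs. BECs within the upper limits were thinned to 2000 UMIs, again without the shallower cells, and divided by 0, 1, 2, 3, 4 and at least 5 marker UMIs, which left 53 KPC and 954 PyMT cells in the highest step. Kcnj8 stood at 15.1, 32.7, 30.6, 55.0, 86.5 and 132 CPM over these steps in KPC and at 28.4, 49.1, 65.0, 78.7, 93.9 and 132 CPM in PyMT. The KPC intervals at 2 and 3 marker UMIs, 16.7 to 51.3 and 28.4 to 96.2 CPM, overlapped. Trp53i11 went from 153 to 774 CPM in KPC and from 274 to 636 CPM in PyMT, and Ptp4a3 from 111 to 443 and from 267 to 562 CPM. In the highest step the intervals of Kcnj8 were 72.2 to 222 CPM in KPC and 116 to 149 CPM in PyMT. In the other direction, Aqp1 went from 1405 to 434 CPM in KPC and from 564 to 192 in PyMT, and Fbln2 from 236 to 18.9 and from 47.4 to 2.10 CPM. Aplnr showed no such order in KPC, at 449 CPM without marker UMIs and 491 in the highest step, and went from 452 to 319 CPM in PyMT. Abcc9 went from 23.9 to 142 CPM in KPC, and in PyMT from 34.6 to 77.0 at 4 marker UMIs and 69.7 above that, with overlapping intervals in the last steps.

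**Figure D4:**
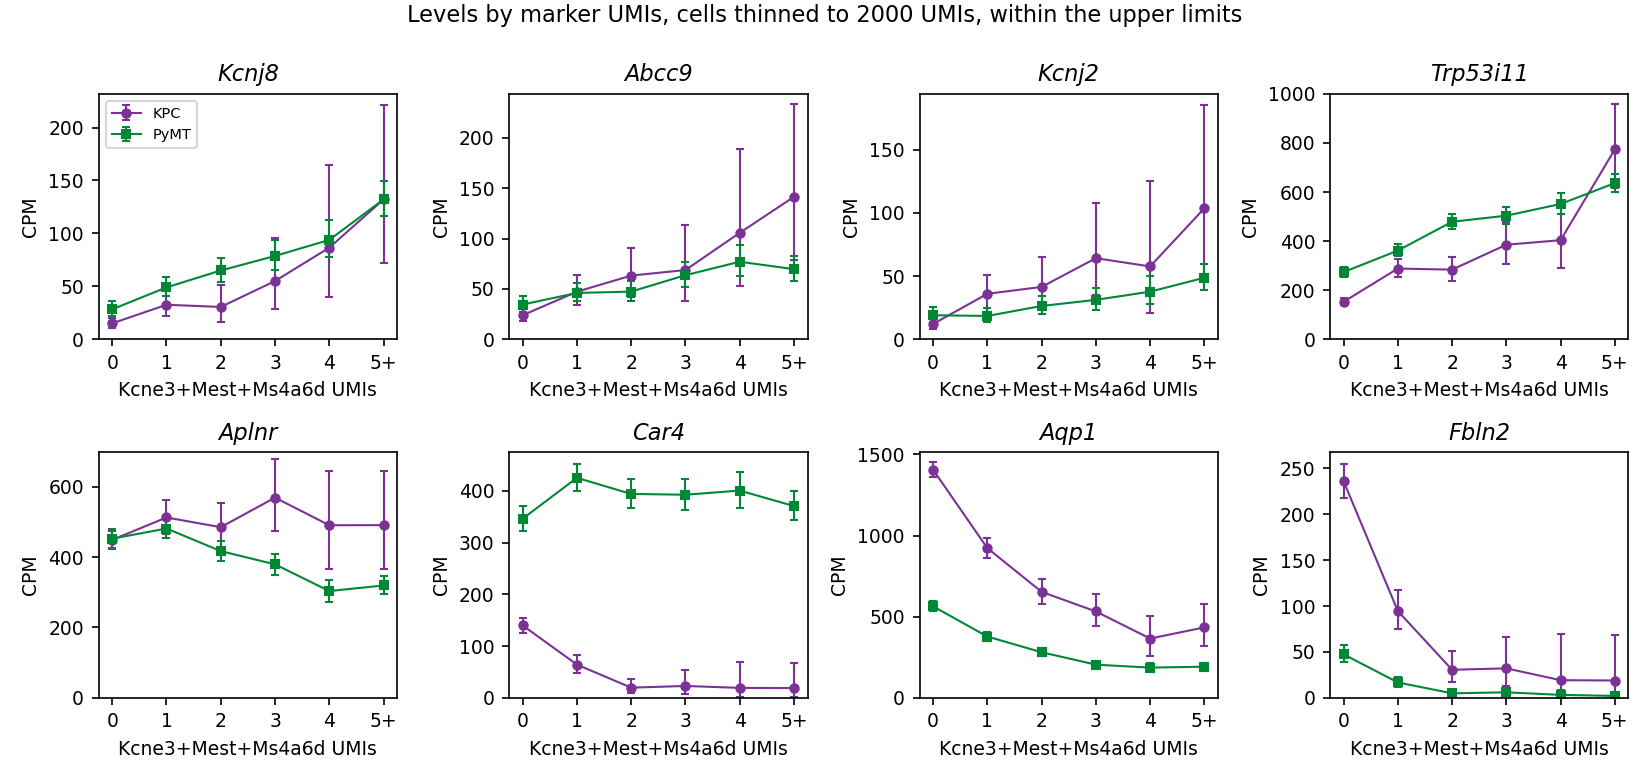
Level (CPM, with exact Poisson 95% intervals) of selected genes in BECs within the upper limits of the rule, thinned to 2000 UMIs, by the number of UMIs of Kcne3, Mest and Ms4a6d together. Kcnj8 was higher and Aqp1 lower at 5 or more marker UMIs than at 0 in both libraries.

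Just outside and just inside the threshold, with 2 against 3 marker UMIs in unthinned cells (236 against 168 in KPC and 745 against 620 in PyMT), Kcnj8 stood at 30.9 against 26.7 CPM in KPC and at 40.5 against 53.8 in PyMT. Ptp4a3 stood at 228 against 234 CPM and at 295 against 373, and Cd36 at 79.4 against 71.1 and at 227 against 192. Members with exactly 3 marker UMIs made up 29.0% of KPC members and 15.7% of PyMT members, so that a part of the class lay next to its limit. The neighbors of members in expression were members more often than their share of the gate gives. Among the 15 nearest BECs of a member, in 30 principal components of genes outside the rule, 38.7% were members in KPC (8.1% of the gate) and 63.3% in PyMT (38.2%). Apln Angpt2 cells made up 24.1% of those neighbors in KPC (19.8% of the gate) and 14.1% in PyMT (19.9%). Apln Angpt2 cells also neighbored their own class, at 63.3% in KPC and 43.7% in PyMT, as did the rest, at 83.2% (72.2% of the gate) and 58.3% (41.8%). Depth differs between the classes, and the rule had set cycling, venular and arterial cells apart from members; the part of either in these shares was not tested.

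Members differed among themselves by the marker that led. Kcnj8 stood at 112 CPM (84.1 to 147) in Kcne3-led KPC members, at 47.4 (36.1 to 61.1) in Mest-led and at 36.7 (26.2 to 50.0) in Ms4a6d-led members. In PyMT it stood at 220 CPM (186 to 260), 75.5 (71.4 to 79.9) and 73.1 (56.4 to 93.2). Kcnj8 was thus highest in the Kcne3-led members of both tumors, whose intervals did not overlap with those of the other members. Trp53i11 had the same order, at 688, 345 and 256 CPM in KPC and at 861, 506 and 378 CPM in PyMT. Chst1 stood at 116, 81.9 and 63.3 CPM in KPC and at 239, 132 and 85.5 in PyMT. Ankrd37 stood at 110, 57.0 and 61.5 CPM and at 118, 52.3 and 32.6. For these genes the Kcne3-led members were the highest in each tumor, although the KPC intervals of Chst1 overlapped between Kcne3-led and Mest-led members.

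Ms4a6d-led members leaned the other way. Plvap stood at 2151 CPM in Kcne3-led, 2453 in Mest-led and 3006 in Ms4a6d-led KPC members, and at 1198, 1248 and 1745 CPM in PyMT. Ptprb stood at 184, 225 and 336 CPM in KPC and at 97.8, 100 and 171 in PyMT, and Thbd, which encodes the anticoagulant thrombomodulin, at 86.8, 114 and 192 and at 15.5, 34.3 and 54.0 CPM. All of them were highest in Ms4a6d-led members. Tnfrsf11b was lowest in Kcne3-led members, at 8.47 CPM in KPC and 18.6 in PyMT, against 31.3 and 36.1 in Mest-led and 48.6 and 33.7 in Ms4a6d-led members. Spp1 had no common order, with 606, 53.8 and 157 CPM in KPC and 68.3, 144 and 42.7 in PyMT. The Kcne3-led members were the fewest of the groups by leading marker, with 83 in KPC and 166 in PyMT.

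**Figure D5:**
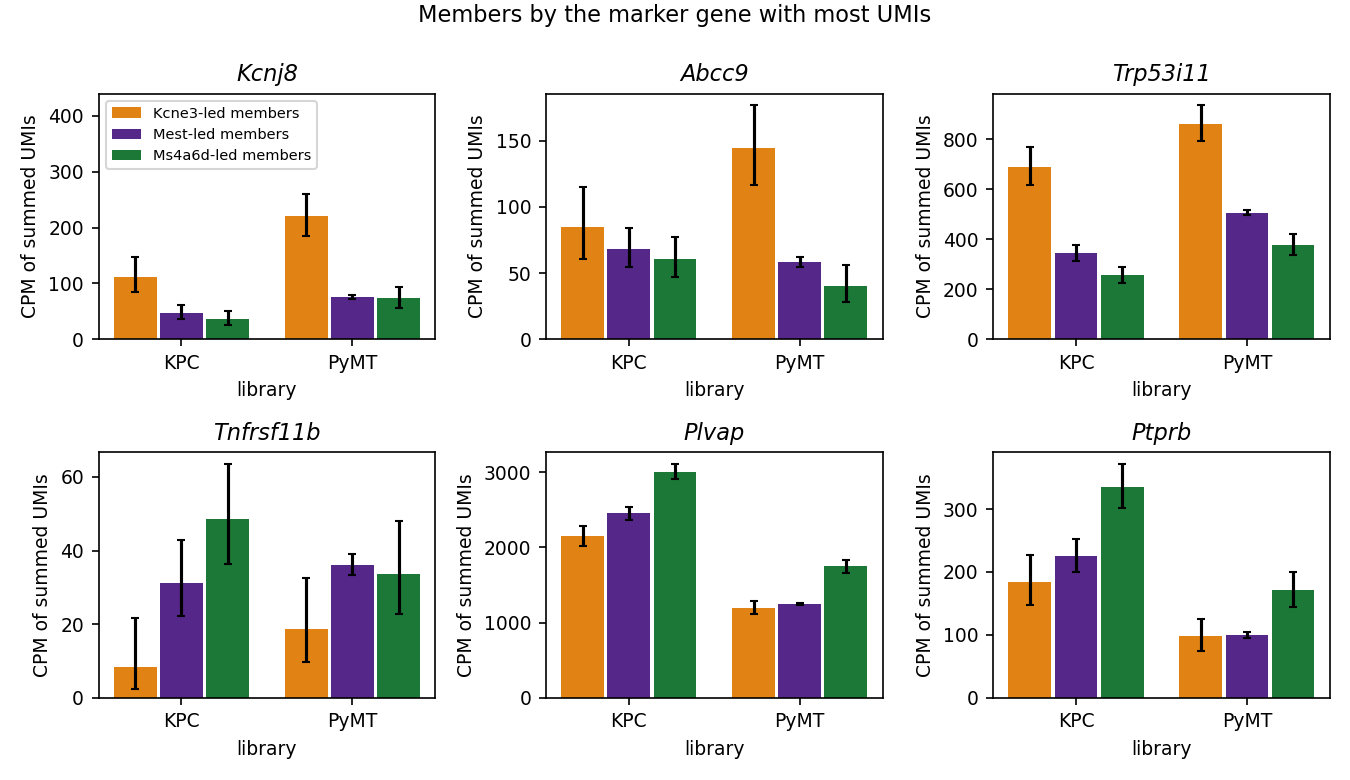
Level (CPM, with exact Poisson 95% intervals) of selected genes in members whose most abundant marker was Kcne3, Mest or Ms4a6d, for KPC and PyMT. Kcnj8 and Trp53i11 were highest in Kcne3-led members and Plvap in Ms4a6d-led members of both libraries.

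The tumors differed in what else their members carried. Against the rest, 1 gene of the 4816 (0.0208%) was past 1.5-fold in opposite directions in the libraries. This was Btnl9, a butyrophilin-like gene of capillaries, at 44.4 CPM in KPC members against 89.2 in the rest and at 39.1 against 25.5 in PyMT. The levels in members were thus close, and those of the rest were not. Gja4 had a log2 ratio over the rest of 0.39 in KPC and was lower in PyMT members (-1.22), and Cldn5 was higher in KPC (1.62) and by less in PyMT (0.29). Pgf stood at 12.6 CPM in KPC members and at 53.2 CPM in PyMT members. Against Apln Angpt2 cells 2 genes (0.0346%) were past 1.5-fold in opposite directions, Igf1, at 13.3 against 29.9 CPM in KPC and 29.9 against 8.17 CPM in PyMT, and Rsad2, at 29.8 against 52.2 and 85.7 against 46.8 CPM. With the rest weighted to the depth of the members the KPC ratio of Btnl9 was 0.31, after thinning it was -0.14, and with the stricter filter on genes and mitochondrial UMIs it was -0.37. Its PyMT ratio was under 1.5-fold with a threshold of 2 (0.579) or 4 marker UMIs (0.567), with Kcne3 and Mest (0.570) or Kcne3 and Ms4a6d (0.39) as the only markers, after thinning (0.579), against the rest within the upper limits (0.37) and as a mean of CPM over cells (0.28). After thinning the PyMT ratio of Rsad2 was -0.04. The KPC ratio of Rsad2 was -0.583 with a threshold of 4 marker UMIs and -0.32 with Kcne3 and Ms4a6d as the only markers. Under each of these settings the gene named was no longer past 1.5-fold in opposite directions. Igf1 was not followed under these or any other settings. With 1 library per tumor these differences were not tested.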

How the data were processed

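The authors aligned the reads of both libraries to mm10 with Cell Ranger 3.0, per the labels (3.0.2 in the matrix header), and deposited UMI counts per gene and barcode, not normalized and including other cell types left by the sort. The chemistry is given both as v2 and as v3 in the sources. KPC held 44441942 UMIs in 10236 barcodes and PyMT 55547926 in 12464. The filter removed 645 and 720 barcodes.

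Everything else was computed from these counts. Members, comparison classes and 36 gene lists were chosen with earlier results of these data known. UMIs were summed per class and library, and ratios of CPM were taken with exact conditional intervals, without the genes of the rule and mitochondrial genes. Genes named come from the 12 genes per side and comparison with the largest weaker ratio of both libraries. They also come from up to 4 genes per list past 1.5-fold in both, list genes past it in opposite directions, and the rule genes. Of these, some cell cycle genes are not described, among them Cdca8, Smc4, Hist1h1b, Hist1h2ap, Spc25, Dut and Hmgb2. Igfbp3, Fabp4 and Pdgfb are named beyond the 4 of their lists. Other genes (Aplnr, Plvap, Kdr, Car4, Kcnq1, Rgs5, Pdgfrb and those listed as not differing) were chosen after their values were seen. Scrublet thresholds of 0.733 in KPC and 0.75 in PyMT marked 0 cells, so it had not worked, and the highest 8% of doublet scores were left out as an alternative. Nearest neighbors used 2000 variable genes. Thinning used seed 0. The computation of ratios and intervals was checked on simulated Poisson counts. These follow the counting model of the intervals and hold no further spread between cells, so the check does not cover such spread. Gene identifiers matched GENCODE M21 for 31011 of 31055 features. Alternatives covered the filters, the threshold and choice of markers, thinning, depth, doublets, the comparators and the fold. Python 3.11.15, numpy 2.4.6, scipy 1.17.1, pandas 2.3.3, scikit-learn 1.9.0 and scanpy 1.11.5 were used.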

Additional observations from a re-analysis of the deposited data

Results flagged for a closer look

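Btnl9 differed in opposite directions between the tumors, with log2 ratios of members over the rest of -1.01 in KPC and 0.61 in PyMT, but 1 or both ratios were short of 1.5-fold under most other settings of the rule and of depth, down to -0.14 in KPC after thinning and 0.28 in PyMT as a mean of CPM over cells, and that in KPC reversed to 0.31 with the rest weighted to the depth of members. Igf1, which encodes insulin-like growth factor 1, was lower than in Apln Angpt2 cells in KPC members (-1.17, 13.3 against 29.9 CPM) and higher in PyMT members (1.87, 29.9 against 8.17 CPM). The other settings were not run for Igf1. Rsad2, which encodes the antiviral protein viperin, had ratios to Apln Angpt2 cells of -0.81 in KPC and 0.87 in PyMT. Its PyMT ratio was -0.04 after thinning. Its KPC ratio was short of 1.5-fold with a threshold of 4 marker UMIs (-0.583) and with Kcne3 and Ms4a6d as the only markers (-0.32). The differences between the tumors were not tested, since each tumor has 1 library.

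The markers also appeared in cells outside the gate, grouped by the gate gene of other cell types with the most UMIs and at least 3. Mest stood at 175 CPM in 676 KPC cells and at 440 CPM in 424 PyMT cells led by the lymphatic gene Mmrn1. Kcne3 stood at 66.4 CPM in 156 KPC cells led by Epcam.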

How the results depend on the processing

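Only genes picked by the naming rule given above were followed under the alternatives, not every gene counted as higher or lower. Of the gene results followed, the 34 that were higher in members in both libraries stayed above 0 under every alternative tried. Of these, 21 stayed at or above 1.5-fold under all alternatives. Of 1386 gene results under the alternatives, 978 moved by less than their counting interval, 393 moved by more and 15 reversed. The share of members was 10.99% in KPC and 42.07% in PyMT when 1000 genes were required and mitochondrial UMIs held under 5%, 11.33% and 45.43% with a threshold of 2 marker UMIs, 5.719% and 32.24% with 4, 4.456% and 34.68% with Kcne3 and Mest, 4.442% and 8.897% with Kcne3 and Ms4a6d, 6.83% and 35.98% with Mest and Ms4a6d, and 6.921% and 33.91% after thinning to 2000 UMIs. It was higher in PyMT under each, with the narrowest gap when Mest was not a marker.

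Counts of genes higher and lower than the rest were 15 and 34 after thinning, 79 and 232 with detection in 5% of cells, 15 and 27 with 25%, and 4 and 35 at 2-fold. Against Apln Angpt2 cells these counts were 29 and 43 after thinning, 80 and 307 with 5%, 19 and 63 with 25%, 9 and 91 at 2-fold, and 25 and 39 within the other upper limits, and with Kcne3 and Ms4a6d as the only markers 107 genes were higher.

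Reversals were mostly of cycling genes, whose comparators then held the same limit on Top2a and Mki67 as members. Against the rest within the limits the weaker log2 ratio was 0.002721 for Birc5, 0.4217 for Cdk1, 0.222 for Pclaf, 0.0129 for Rrm1, 0.2954 for Stmn1 and 0.03253 for Tk1. Against Apln Angpt2 cells within the limits it was 0.1026 for Aurkb, 0.1394 for Cenpf, 0.155 for Hist1h2ae, 0.2319 for Nusap1, 0.02541 for Pbk, 0.4443 for Prc1 and 0.1278 for Stmn1. The PyMT ratio of Rsad2 to Apln Angpt2 cells was -0.0436 after thinning, and the KPC ratio of Btnl9 to the rest was 0.3115 with the rest standardized to the depth of members; the cause was not tested. The weaker ratio of Kcnj8 to the rest ranged from 1.361 to 1.82, and that of Gja4 to Apln Angpt2 cells from 1.236 to 2.123. That of Tnfrsf11b to the rest ranged from 0.4766 to 1.348.

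No paired analysis was possible because each tumor model has 1 library. Genes with a UMI in fewer than 10% of the cells of both classes were not compared, which left out most potassium channel, imprinted and Ms4a genes. Whether low depth or low expression kept them under this limit was not tested. The intervals of KPC members are wider than those of PyMT members. The alternatives that leave out cells with pericyte or myeloid genes and that limit the Apln Angpt2 cells were chosen after seeing the data.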
